A study of Homo sapiens with 6 samples.

Results

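The genes described here are the named antisense noncoding genes of HBEC3kt cells, taken as the Ensembl genes of the isoform counts whose GENCODE 29 symbol ends in -AS with or without a number and which hold 10 or more reads in total. The rule found 117 genes, of 174 with such a name and of 9631 Ensembl genes with 10 or more reads, out of 11034 Ensembl genes in all. HBEC3kt is a line of human bronchial epithelial cells immortalised in culture. Poly(A) RNA was copied into cDNA by the Smart-Seq2 method and read full length on a MinION. The 3 wild-type (WT) libraries and the 3 libraries of the U2AF1 S34F genotype come from 2 isolates per genotype, and no further treatment is given in the labels. In both genotypes the titles mark replicates 1 (isolate 1) and 2 (isolate 2) as B1, while replicate 3 repeats isolate 2 under the mark B2. The sources used here give neither the meaning of these marks nor the origin of the isolates, so p-values measure the spread between these libraries, which may in part be technical. U2AF1 is the small subunit of the factor that recognises the AG at intron ends, and S34F exchanges a serine for a phenylalanine in it. The comparison asks how the mutation bears on the transcripts of these cells.

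A natural antisense gene is transcribed from the strand opposite to another gene, its partner, whose name stands before the hyphen. Head-to-head pairs start near each other and run apart, often from 1 shared promoter region, while tail-to-tail pairs run towards each other and can share bases at their ends. Most antisense RNAs are spliced and polyadenylated at low levels, and some regulate the partner by base pairing, by transcription through it or by recruiting chromatin proteins, while many have no known function.

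The 6 libraries held 1720292, 1286512 and 1584167 assigned reads in WT and 811255, 451540 and 1014868 in S34F. A single read was worth 0.595 to 0.848 CPM (reads scaled to a common library size by edgeR's TMM method) in WT and 0.945 to 2.12 in S34F libraries, so low genes are measured less precisely in S34F. All 11 markers of basal bronchial epithelium were read, with summed levels of 6900 to 8781 CPM in WT and 6837 to 9200 in S34F. None of 6 fibroblast, 3 endothelial or 4 secretory and ciliated airway markers was read, and of 4 blood markers only CD68 was, at 55.1 to 78.6 CPM in WT and 62.3 to 88.7 in S34F. In bulk libraries fewer cells with a transcript and less of it per cell cannot be told apart.

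The name does not fix the class of gene. By GENCODE 29, 80 of the 117 genes were typed antisense, 18 processed transcript and 13 long intergenic RNA, and 5 were transcribed pseudogenes. The last, NCBP2-AS2, is typed protein coding, so it belongs here by name only. Of the 117, 13 now carry a symbol without the ending, such as LRRC75A-AS1, renamed SNHG29 as a host gene of small nucleolar RNAs, and UBA6-AS1, renamed UBA6-DT as a divergent transcript. In the annotation, 58 genes lay head to head with their partner, 40 of them overlapping it and 18 apart from it. Another 28 lay tail to tail with an overlap, 15 within the partner, and 15 held the partner within them. The partner of RPARP-AS1 was not in the annotation. Among the head-to-head pairs the starts were a median of 466.5 bases apart, and in 44 of 58 they were within 1000 bases.

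The start regions of 5 of the 6 antisense genes called lower in S34F libraries, described below, are shown because these genes carry the main difference. The sixth, SVIL-AS1, has 2 windows in the table, and neither is shown. Each window is 300 bases of RefSeq on GRCh38.p14, 5′ to 3′ on the gene's own strand, with the 250 bases before the start in lower case and the first 50 transcribed bases in capitals. The windows are chr9:12814340-12814639 (minus strand) for LURAP1L-AS1, chr5:142325043-142325342 (plus) for SPRY4-AS1, chr9:2622324-2622623 (minus) for VLDLR-AS1, chr22:46053596-46053895 (plus) for PRR34-AS1 and chr4:67701028-67701327 (plus) for UBA6-AS1, listed there as UBA6-DT.
LURAP1L-AS1: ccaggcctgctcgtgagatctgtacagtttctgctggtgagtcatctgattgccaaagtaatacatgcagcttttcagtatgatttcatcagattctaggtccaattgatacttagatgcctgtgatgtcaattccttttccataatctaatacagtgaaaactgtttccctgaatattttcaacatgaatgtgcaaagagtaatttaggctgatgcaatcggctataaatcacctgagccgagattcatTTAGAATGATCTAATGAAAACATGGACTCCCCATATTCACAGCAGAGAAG
SPRY4-AS1: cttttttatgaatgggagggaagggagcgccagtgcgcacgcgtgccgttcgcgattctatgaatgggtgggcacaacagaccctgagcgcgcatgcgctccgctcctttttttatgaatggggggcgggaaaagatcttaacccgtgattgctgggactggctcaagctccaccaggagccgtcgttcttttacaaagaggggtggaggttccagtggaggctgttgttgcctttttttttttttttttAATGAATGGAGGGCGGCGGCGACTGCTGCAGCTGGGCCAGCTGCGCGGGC
VLDLR-AS1: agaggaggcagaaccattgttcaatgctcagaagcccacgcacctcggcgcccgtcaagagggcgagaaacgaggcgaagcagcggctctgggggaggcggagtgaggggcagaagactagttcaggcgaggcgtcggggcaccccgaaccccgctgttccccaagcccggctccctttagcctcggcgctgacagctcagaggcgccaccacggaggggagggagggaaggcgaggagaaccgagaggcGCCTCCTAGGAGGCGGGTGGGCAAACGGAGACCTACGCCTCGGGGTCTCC
PRR34-AS1: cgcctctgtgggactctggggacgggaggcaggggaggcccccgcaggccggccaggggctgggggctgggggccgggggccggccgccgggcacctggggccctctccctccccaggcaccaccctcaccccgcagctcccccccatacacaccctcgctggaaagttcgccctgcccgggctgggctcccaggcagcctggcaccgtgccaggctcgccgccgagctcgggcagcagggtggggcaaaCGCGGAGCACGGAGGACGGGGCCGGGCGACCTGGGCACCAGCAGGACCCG
UBA6-AS1: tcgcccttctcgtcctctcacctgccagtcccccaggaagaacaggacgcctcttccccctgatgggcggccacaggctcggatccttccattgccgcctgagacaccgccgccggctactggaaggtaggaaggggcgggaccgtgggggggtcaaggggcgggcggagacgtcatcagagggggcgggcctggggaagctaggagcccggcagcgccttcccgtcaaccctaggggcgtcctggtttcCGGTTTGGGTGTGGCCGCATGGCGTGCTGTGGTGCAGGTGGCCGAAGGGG
The LURAP1L-AS1 window differs in base composition from the other 4. It is 39.0% G or C and holds 3 CG pairs, against 55.7% to 78.0% and 20 to 26 CG pairs in the others. The LURAP1L-AS1 window alone of these 5 holds the TATA-box letters TATAAA, the letters CCAAT of a CCAAT box, and the AP-1 motif written TGANTCA, with 1 match of each. The GC-box core GGGCGG was found 5 times in the window of UBA6-AS1, 2 times in that of SPRY4-AS1 and not in the other 3. The UBA6-AS1 window shares 222 bases with the start window of UBA6 on the other strand, and the 2 RefSeq starts are 123 bases apart.

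RefSeq start windows were at hand for 98 of the 117 antisense genes, and the first listed window of each was used. The comparison took all windows, so a gene with several listed starts counts more than once in it. Each motif was searched on both strands, and matches of different motifs may overlap. TATAAA stood in 6.12% of the windows of the antisense genes, against 11.5% of all 35116 RefSeq windows. For CCAAT the shares were 34.7% and 34.6%, for GGGCGG 62.2% and 45.0%, and for TGANTCA 7.14% and 7.71%. CG pairs numbered a median of 25.5 per window of the antisense genes and 14 over all RefSeq windows. These are counts of letters, and binding was not measured.

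Reads were very unevenly spread over the 117 genes. LRRC75A-AS1 held 41129 of their 49460 reads (83.2%), and the other 116 together 8331. The median gene had 26 reads over all 6 libraries, 22 genes had 100 or more, and 80 had 10 to 49. A read was found in every library for 70 genes. At the limit of the rule, ALOX12-AS1 and IQCH-AS1 held 10 reads each and were included, while HLA-F-AS1 and MNX1-AS1 with 9 each were not. Between the genotypes, the share of all reads that fell on the 117 genes was 0.508%, 0.708% and 1.13% in WT replicates 1 to 3 and 0.401%, 0.282% and 0.906% in S34F. Their summed level was 7858 ± 2723 CPM in WT and 5577 ± 3001 in S34F (SD, n = 3 each), with overlapping ranges and an exact two-sided permutation p of 0.5. Without LRRC75A-AS1, a setting added after the data were seen, the sums were 1186, 1547 and 1438 CPM in WT and 1143, 837 and 954 in S34F. Every S34F library then lay below every WT library, which gives p = 0.1 in the exact permutation test, the smallest value that 3 against 3 libraries allow.

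Tested gene by gene, 6 antisense genes were lower in S34F libraries and none was higher. They were LURAP1L-AS1, VLDLR-AS1, SPRY4-AS1, PRR34-AS1, UBA6-AS1 and SVIL-AS1, with falls of 1.45 to 4.93 on the log2 scale. edgeR's quasi-likelihood test with a term for B1/B2 took 7033 genes and loci past its filter and called 228 at a Benjamini-Hochberg adjusted p of 0.05, of which 150 (2.13% of those tested) were lower in S34F. Of the 117 antisense genes 34 passed the filter, 6 were called, and 14 had an unadjusted p under 0.05, all 14 with a negative fold change. Among all Ensembl genes with 10 or more reads, 980 of 5953 tested had an unadjusted p under 0.05. The log2 fold change was negative in 28 of the 34, with a median of -0.49, beside a median of 0.02 and 48.4% negative values over everything tested. The filter asks for about 8.69 CPM (before TMM scaling) in 3 libraries, and 28 of the 34 passed it in all 3 WT libraries but 15 in all 3 S34F libraries. Of the 6 called genes, SVIL-AS1 alone passed it in all 3 S34F libraries, and LURAP1L-AS1 and VLDLR-AS1 passed it in no S34F library. Genes high in WT thus entered more easily, and these counts describe the tested genes, not all 117. The count of 6 depends on the libraries: it was 3 without WT replicate 1, 0 without WT replicate 2 (8 at an unadjusted p under 0.05), 1 without WT replicate 3 and 1 without S34F replicate 3, and DESeq2 and limma-voom called 4 and 2. Without the B1/B2 term edgeR called none (9 at an unadjusted p under 0.05). Replicates 2 and 3 of a genotype are the same isolate, and with their reads summed edgeR called 0 of 40 antisense genes (6 at an unadjusted p under 0.05) and 0 of all 8614 genes and loci tested.

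LURAP1L-AS1 (ENSG00000235448.1), antisense to a gene for a leucine-rich adaptor-like protein, showed the largest difference. Its models lie on the minus strand of chromosome 9 from 12688149 to 12814344 (hg19). It had 15, 17 and 39 reads in WT replicates 1 to 3 and 0, 0 and 1 in S34F. The single S34F read came from the B2 library, and the groups did not overlap. Pooled over libraries, the level was 33.5-fold higher in WT (95% counting interval 5.81 to 1340, from 71 against 1 reads), and the edgeR adjusted p was 0.00371. LURAP1L-AS1 passed the filter through its WT libraries alone. Its 4 isoforms have up to 6 exons, and the most read, with 4 exons, held 34 of 72 reads, none of them in S34F. LURAP1L itself had 14 reads and was not tested.

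VLDLR-AS1 (ENSG00000236404.4) runs opposite to the gene of the very low density lipoprotein receptor, on the minus strand of chromosome 9 from 2535653 to 2621653 (hg19). It had 18, 28 and 22 reads in WT and 1, 0 and 2 in S34F. The groups did not overlap, and the pooled ratio of WT to S34F was 10.7 (95% counting interval 3.50 to 53.1), with an edgeR adjusted p of 0.0203. VLDLR-AS1 too passed the filter through its WT libraries alone. The most read of its 3 isoforms has 4 exons and held 49 of its 71 reads, 1 of them in S34F. The VLDLR gene had 24 reads, under the filter.

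SPRY4-AS1 (ENSG00000231185.2) lies head to head with SPRY4, an inhibitor of receptor tyrosine kinase signalling, on the plus strand of chromosome 5 from 141704755 to 141747979 (hg19). Its level was 17.9, 20.4 and 61.3 CPM in WT and 3.29, 0 and 13.2 in S34F. Replicate 3, the B2 library, was the highest of each genotype, and the highest S34F value still lay under the lowest WT value. The log2 fold change was -2.54 with a standard error (SE) of 0.48 and an edgeR adjusted p of 0.00774. In the same fit SPRY4-AS1 was 1.88 higher in B2 than in B1 on the log2 scale (SE 0.42, adjusted p 0.00464), so its level followed that mark as well as the genotype. No read of SPRY4 was counted.

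PRR34-AS1 (ENSG00000241990.1), opposite a gene for a proline-rich protein, lies on the plus strand of chromosome 22 from 46449750 to 46454402 (hg19). It stood at 46.5, 61.1 and 30.3 CPM in WT and at 4.93, 8.50 and 17.0 in S34F. All S34F libraries were below all WT libraries, the nearest 2 being the B2 libraries of both genotypes. The log2 fold change was -1.99 (SE 0.45, edgeR adjusted p 0.0245). No read of PRR34 was counted.

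UBA6-AS1 (ENSG00000248049.2) starts beside UBA6, which encodes an enzyme that activates ubiquitin, and lies on the plus strand of chromosome 4 from 68566999 to 68588949 (hg19). Its level was 35.8, 21.2 and 29.2 CPM in WT and 9.86, 8.50 and 7.56 in S34F. The S34F values all lay under the lowest WT value. They rest on few reads, since 1 read is worth 1.64, 2.12 and 0.945 CPM in S34F replicates 1 to 3. The log2 fold change was -1.75 (SE 0.41, edgeR adjusted p 0.0306). Its 4 isoforms share 1 first exon start. The most read 3-exon form was at 11.3 ± 1.58 CPM in WT and 5.18 ± 1.23 in S34F (SD, n = 3), and the second at 9.12 ± 3.01 and 0.862 ± 0.824. The S34F mean of the second form is under the worth of 1 read in any S34F library. These reads are too few to show whether the forms differ in their fall. UBA6 had 5 reads.

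SVIL-AS1 (ENSG00000224597.5), typed as a transcribed pseudogene, runs tail to tail with SVIL, the gene of the actin-binding protein supervillin, on the plus strand of chromosome 10 from 29698469 to 29772847 (hg19). Its level was 35.8, 41.6 and 29.7 CPM in WT and 13.1, 19.1 and 8.50 in S34F. The groups did not overlap. The log2 fold change was -1.45 (SE 0.37, edgeR adjusted p 0.0400), and with the replicate number as a block the adjusted p was 0.0596, which ends the call. Its reads were spread over 10 isoforms, of which the most read held 35 of 185 reads. SVIL had 89 reads and did not pass the filter.

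**Figure D1:**
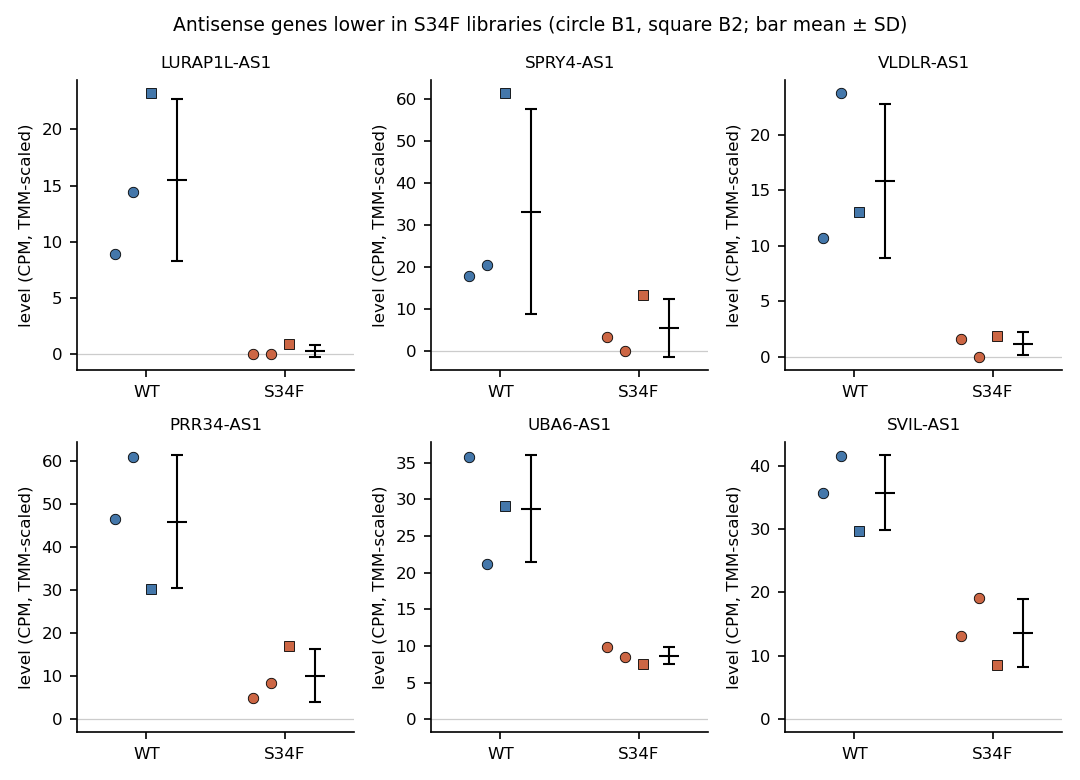
Level in CPM (TMM-scaled, linear axes from 0) of the 6 antisense genes called lower in S34F, by library: circles are B1 and squares B2 libraries, blue WT and orange S34F, and the bar beside them is the mean ± SD of 3 libraries. In each panel the 3 S34F points lie under the 3 WT points, and for SPRY4-AS1 the B2 library is the highest of both genotypes.

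None of the other tested antisense genes passed the test, and the most read of them are given here. Under other settings EPB41L4A-AS1 was called lower with no filter on low counts (edgeR adjusted p 0.0412) and without S34F replicate 1 (0.0211), and SPINT1-AS1 without S34F replicate 1 (0.0285). NOP14-AS1, antisense to a nucleolar factor of small ribosomal subunit assembly, was at 122, 88.2 and 62.5 CPM in WT and 59.1, 48.9 and 43.5 in S34F. Its groups did not overlap, while its log2 fold change of -0.81 (SE 0.29) had an edgeR adjusted p of 0.170. EPB41L4A-AS1 was at 33.96, 61.9 and 60.1 CPM in WT and 32.9, 17.0 and 24.6 in S34F, a log2 difference of -1.05 (SE 0.36, edgeR adjusted p 0.155). MAPKAPK5-AS1, antisense to a stress-activated kinase gene, had the most negative fold change among the tested genes that were not called, -1.69 (SE 0.57, edgeR adjusted p 0.135), with 17, 17 and 20 reads in WT and 1, 2 and 5 in S34F. PAX8-AS1 and SPINT1-AS1 had log2 fold changes of -0.90 and -0.85 with overlapping groups, and RAB30-AS1 had -0.54 without overlap (edgeR adjusted p 0.124, 0.244 and 0.471). ZNF561-AS1 had the largest positive value, 0.51 (SE 0.47, edgeR adjusted p 0.638), which rests on S34F replicate 1 at 82.1 CPM beside 21.2 and 21.7 in the other S34F libraries. Without that library its log2 fold change was -0.45. OTUD6B-AS1 (0.31), URB1-AS1 (0.19), OIP5-AS1 (0.08) and NCBP2-AS2 (-0.01) lay within 1 SE of 0.

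Among all 117 genes, tested or not, the 3 S34F levels lay wholly under the 3 WT levels in 25 (21.4%) and wholly over them in none. The same was seen in 8.28% and 5.26% of the 9631 Ensembl genes with 10 or more reads. The mean CPM was lower in S34F for 83 of the 117 (70.9%), against 50.7% of the 9631. Among genes of 10 to 49 reads the shares were 71.2% (57 of 80 antisense genes) and 52.7%. In all, 3 genes had no S34F read and are named after their values were seen: SP2-AS1 with 25, RARA-AS1 with 17 and PRR7-AS1 with 11 WT reads. Genes named LINC, the long intergenic class, had a lower mean in 38 of 54 (70.4%) and no overlap in 13, 11 of them lower and 2 higher in S34F. Of the 22 tested, edgeR called 1, and 8 had an unadjusted p under 0.05. The 12 other genes named -DT, -IT or -OT had a lower mean in 8, and 0 of the 3 tested were called by edgeR (1 at an unadjusted p under 0.05). Whether these classes differ was not tested.

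**Figure D2:**
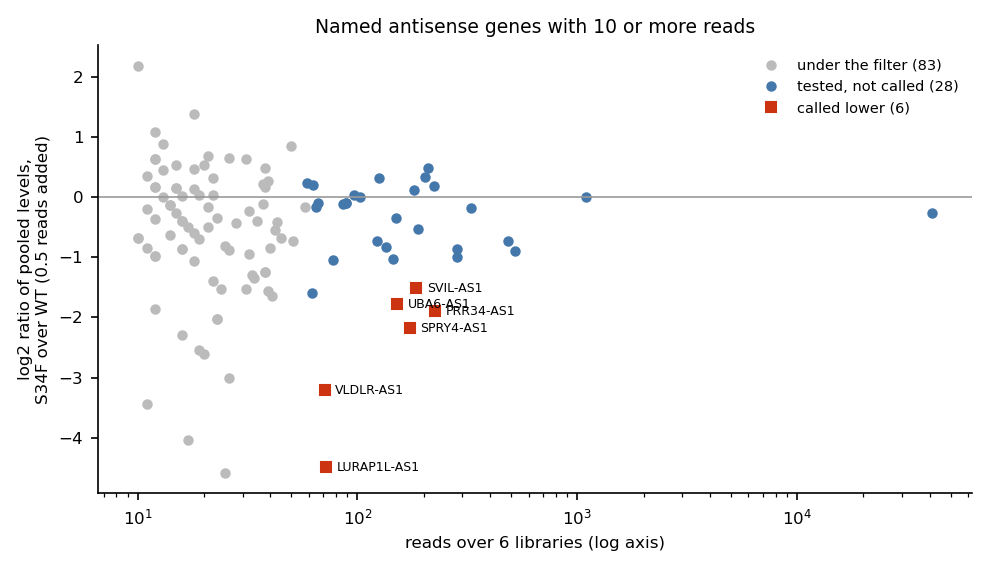
Log2 ratio of the pooled level in S34F over WT (vertical axis, 0.5 reads added to each side) against total reads (horizontal, log axis) for the 117 antisense genes: grey under the filter (83), blue tested and not called (28), red called lower (6). The called genes lie at 71 to 226 reads, and the spread of the grey points widens to the left, where the added 0.5 reads sets the value of genes with no S34F read.

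Genotype was not the only label that antisense levels followed. In the same edgeR fit, B2 against B1 called 1840 of 7033 genes and loci (26.2%) and 5 of the 34 antisense genes. RPARP-AS1 was at 21.5 and 17.0 CPM in the B1 and 105 in the B2 library of WT, and at 21.4 and 6.37 against 75.6 in S34F, a log2 difference of 2.41 (SE 0.35, edgeR adjusted p 0.000146). PAX8-AS1 was higher in B2 by 1.47, at 139 against 53.6 and 45.8 CPM in WT and 73.7 against 27.9 and 25.5 in S34F (edgeR adjusted p 0.00171). SPRY4-AS1 was described above. PSMA3-AS1 was 1.33 higher (edgeR adjusted p 0.0252), while WAC-AS1 was lower in B2 with a log2 difference of -1.80 (edgeR adjusted p 0.0493). Since B2 libraries come from isolate 2 only, the mark and the repeat of that isolate cannot be told apart.

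**Figure D3:**
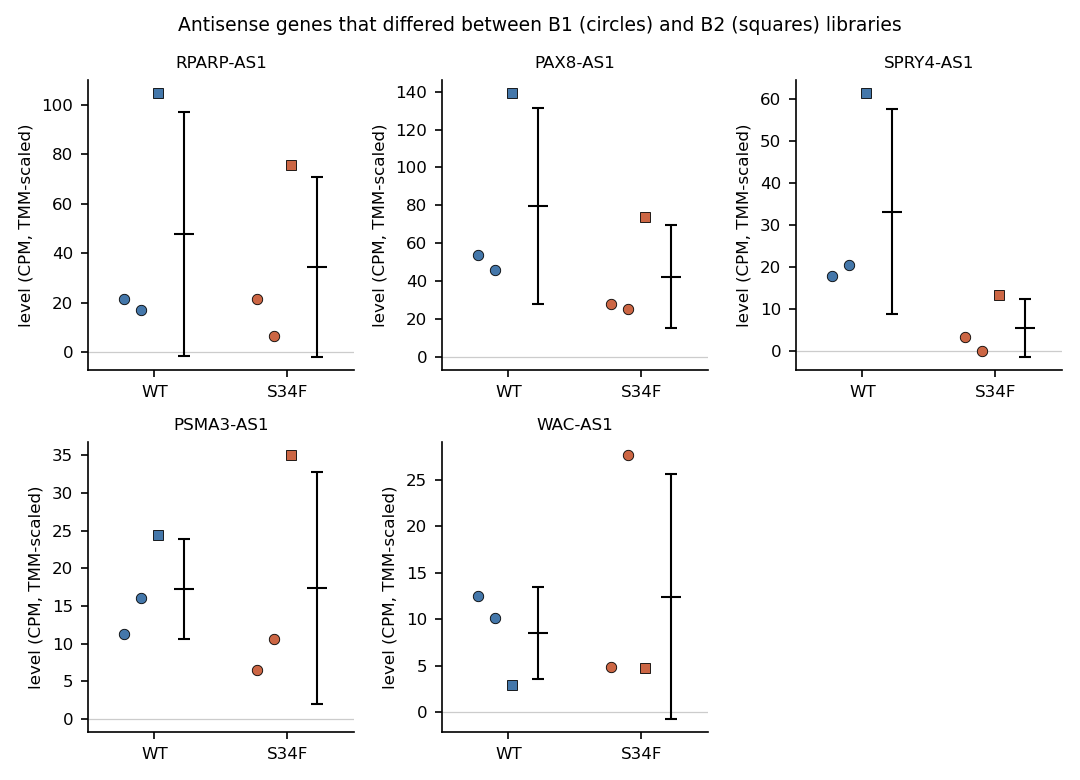
Level in CPM (TMM-scaled) of the 5 antisense genes called between B2 (squares) and B1 (circles) libraries, for WT (blue) and S34F (orange), with the mean ± SD of 3 libraries as a bar. The square is the highest point of each genotype for RPARP-AS1, PAX8-AS1, SPRY4-AS1 and PSMA3-AS1, and the lowest for WAC-AS1.

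Partner genes were read from the same fit. Of the 117 antisense genes 81 had a partner that was read, and 72 of these partners had 10 or more reads. Of the partners 44 passed the filter and 1 was called, lower in S34F, with 8 at an unadjusted p under 0.05. A single call in 44 is near the 2.13% called lower over everything tested, and a difference between antisense genes and partners was not tested. That partner, named after its value was seen, is IER3, an immediate early gene that guards cells against death signals. Its level was 548, 470 and 283 CPM in WT and 59.1, 136 and 91.6 in S34F, every S34F library under every WT library (log2 fold change -2.13, SE 0.35, edgeR adjusted p 0.00252). IER3-AS1 itself had too few reads to be tested. Among the 81 pairs whose partner was read, the antisense gene had more reads than the partner in 30, counted as long reads with no scaling for length. These 30 include NCBP2-AS2, URB1-AS1 and SLC25A21-AS1, whose only models lie on the strand of the partner, as described below. For the other 36 antisense genes no read of a partner was counted. RPARP-AS1 is among these 36 because its partner was not in the annotation. No partner of the 6 called antisense genes passed the filter.

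Both genes could be tested in 11 pairs, and their log2 fold changes had the same sign in 7. The pairs of NCBP2-AS2 and URB1-AS1 are included, though the only model of each lies on the strand of its partner, as described below. Across these 11 pairs Pearson's r was 0.43 and Spearman's rho 0.40, given as a description since all pairs share the same libraries. PAX8-AS1 with -0.90 stood beside PAX8, a transcription factor gene, with -1.18 (edgeR adjusted p 0.124 and 0.264). SPINT1-AS1 with -0.85 stood beside SPINT1, which encodes an inhibitor of cell-surface serine proteases, with -1.10 (edgeR adjusted p 0.244 and 0.0562). SPINT1 was at 98.3, 79.7 and 63.1 CPM in WT and 36.1, 46.7 and 30.2 in S34F, without overlap. The balance of the MAPKAPK5 pair did not overlap between genotypes, while that of every other pair with both genes tested did. Full separation of 3 from 3 libraries has an exact two-sided permutation p of 0.1, and a single pair of the 11 is near that share. MAPKAPK5-AS1 made up 53.1%, 63.0% and 46.5% of the reads of its pair in WT and 14.3%, 28.6% and 41.7% in S34F. These S34F shares rest on the few antisense reads given above. MAPKAPK5 had a log2 fold change of -0.29 (SE 0.48), and the difference between the 2 genes was not tested.

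**Figure D4:**
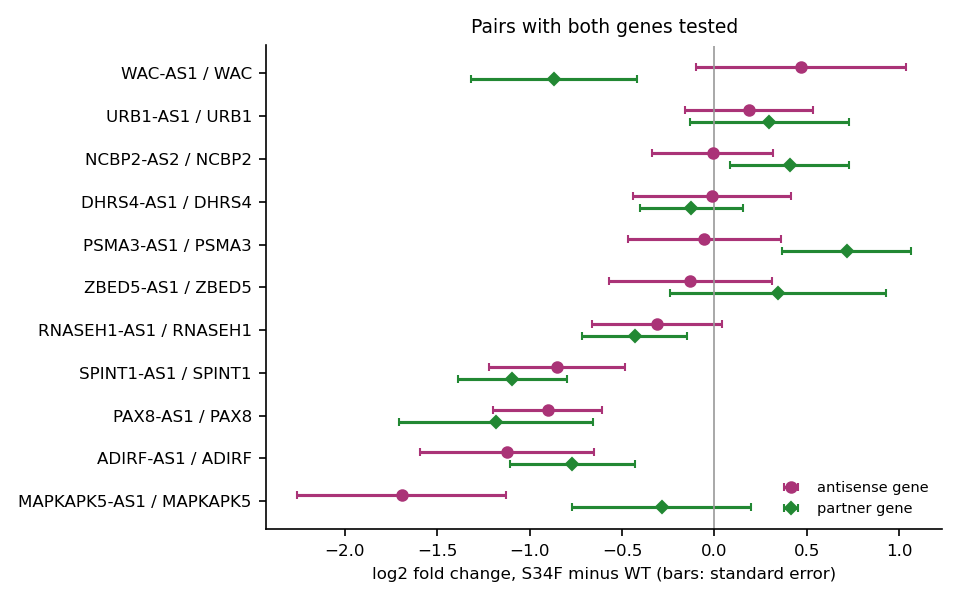
Log2 fold change, S34F minus WT, with its standard error, of the antisense gene (circles) and its partner (diamonds) in the 11 pairs where edgeR tested both. In 7 pairs both values have the same sign, and the widest gap is that of MAPKAPK5-AS1 at -1.69 and MAPKAPK5 at -0.29.

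Transcripts of partners were searched for stretches of exact complementarity of 20 or more bases. Shorter or imperfect pairing was not searched, and pairing itself was not measured. Among annotated GENCODE 29 transcripts of 116 pairs, 77 had a stretch of 30 or more complementary bases and 34 had none of 20 or more. The longest stretch in a pair was a median of 211.5 bases among pairs with 20 or more. Stretches of 30 or more were found in 25 of 28 tail-to-tail pairs, 30 of 40 overlapping head-to-head pairs and 1 of 18 pairs lying head to head apart. Of the called genes, LURAP1L-AS1, SPRY4-AS1 and UBA6-AS1 had none with their partner, while PRR34-AS1 had 173, SVIL-AS1 157 and VLDLR-AS1 739 bases. Of the annotated antisense transcripts that hold these stretches, that of PRR34-AS1 alone was among those read here. A piece of 30 bases from the stretch of SVIL-AS1, called lower, and from that of NOP14-AS1, the second most read noncoding antisense gene, is shown to make the complementarity visible. Each pair of lines is 5′ to 3′ on its own RNA, so that 1 line read backwards pairs with the other. Both antisense transcripts that hold them are annotated forms that were not among those read here.
SVIL-AS1: CCTGGCCAGGAGGTCGGCCAGCGGGTAAAT
SVIL: ATTTACCCGCTGGCCGACCTCCTGGCCAGG
NOP14-AS1: TGGCCAGAATCCCCAGTCCCCATGAGGCTT
NOP14: AAGCCTCATGGGGACTGGGGATTCTGGCCA
In the deposited models, reads of 25 of the 81 antisense genes with a read partner overlapped an exon of the partner, and in 20 of them all reads did. All 519 reads of NOP14-AS1 and all 485 of PAX8-AS1 lay on such isoforms, and 78 of the 185 of SVIL-AS1 did. No antisense isoform shared an intron with the partner, which was largely fixed in advance, since splice sites set the strand of a spliced model.

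Spliced reads carry their strand in the splice sites, and reads of 1 exon do not. All 300 spliced isoforms of the antisense genes lay on the annotated strand, and 112 of the 117 genes had all their reads there. The other 5, NCBP2-AS2, URB1-AS1, SLC25A21-AS1, ZBTB11-AS1 and RAET1E-AS1, consisted of a single 1-exon model on the strand of the partner. Over all Ensembl genes, 302 of 695 isoforms with 1 exon (43.4%) and 64 of 47780 spliced isoforms (0.134%) lay opposite to the annotated strand. The sources used here do not state whether counting used strand, so reads of NCBP2-AS2 and URB1-AS1 cannot be told apart from unspliced reads of the opposite strand. None of the 6 called genes is among these 5. The share of antisense reads on spliced isoforms was 97.0% ± 0.88 in WT and 95.3% ± 2.36 in S34F (SD, n = 3, exact two-sided permutation p = 0.3).

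By exon chain, the reads of the antisense genes fell on 307 isoforms with a median of 3 exons, 121 of them with an annotated transcript ID. A single isoform made up 53 genes, and 14 genes had 5 or more. Of these isoforms 52 could be tested, 25 of them from LRRC75A-AS1, and 2 were called, both lower in S34F, beside 4.26% of all 13961 isoforms tested. The first was the annotated 3-exon form of PRR34-AS1, which held 211 of its 226 reads and stood at 41.7, 56.8 and 29.7 CPM in WT and 4.93, 8.50 and 16.1 in S34F (log2 fold change -2.02, edgeR adjusted p 0.00809). The second was the annotated 3-exon form of SPRY4-AS1 with 110 of its 173 reads, at 11.3, 12.7 and 38.1 CPM in WT and 1.64, 0 and 10.4 in S34F (log2 fold change -2.37, edgeR adjusted p 0.00825). These isoforms hold most reads of their genes, so their values largely repeat those of the genes. Choice among isoforms could be tested in 4 antisense genes and was called in 0 of them by edgeR's Simes test, with 0 at an unadjusted p under 0.05 and 0 called by its F test, beside 0.615% of 2276 genes called overall.

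LRRC75A-AS1 (ENSG00000175061.13) was the most read antisense gene in every library, on the plus strand of chromosome 17 from 16342290 to 16367300 (hg19). Its level was 4018, 6177 and 9208 CPM in WT and 4197, 1865 and 7735 in S34F. The groups overlapped, and the log2 fold change was -0.58 (SE 0.40, edgeR adjusted p 0.502). The B2 library was the highest of each genotype, with a log2 difference between B2 and B1 of 1.11 (SE 0.41, edgeR adjusted p 0.0586). Of its 28 isoforms 24 ended at the same base, 16345280, and shared the last 599 bases. The most read, with 5 exons and an annotated ID, held 2252 reads. The 23 others with that end held 1608 to 1772 reads each, a mean of 1685 with an SD of 45.3, where the square root of the mean is 41.0, so that they differed by little more than counting error. Together these 23 chains held 94.2% of the reads of the gene, and the 4 chains with another end 15 to 48 each. The same evenness was seen within libraries, where the 23 chains had 273 ± 15.8 reads in WT replicate 1, 642 ± 25.7 in WT replicate 3 and 32.5 ± 7.17 in S34F replicate 2 (SD over the chains). The sources used here do not state how reads that match several chains were assigned, and its part in these counts was not tested. The share of the most read chain was 6.39%, 5.82% and 4.33% in WT and 7.98%, 14.1% and 4.86% in S34F, and was highest in the shallowest library.

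**Figure D5:**
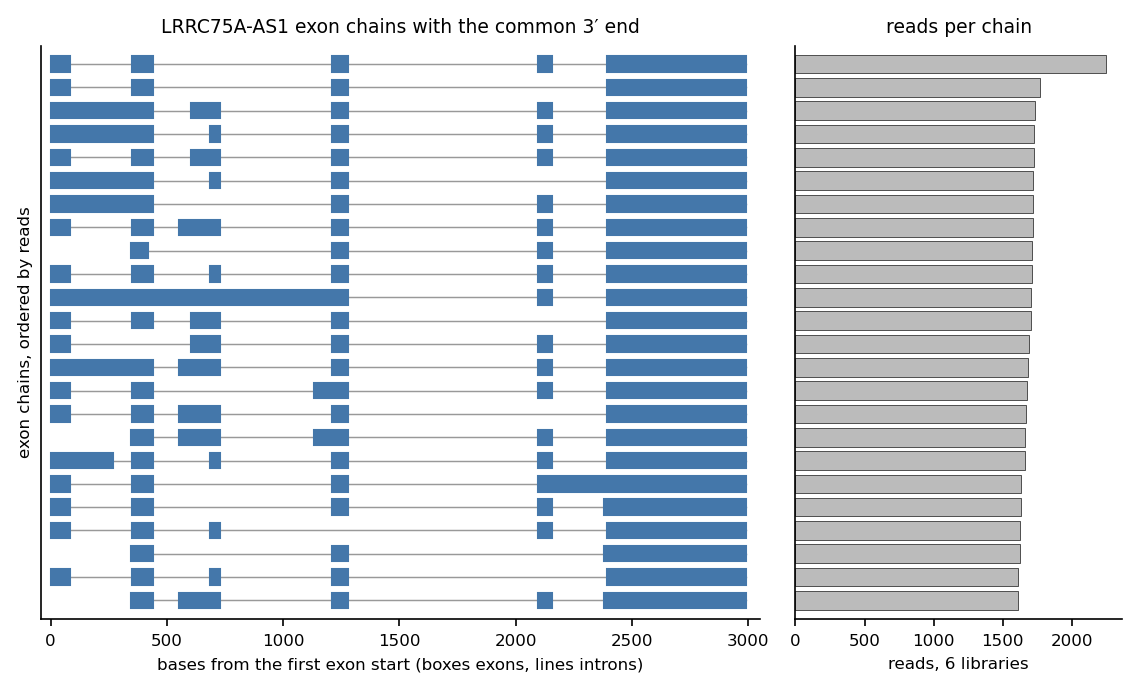
Left, exons (boxes) and introns (lines) of the 24 LRRC75A-AS1 chains that share a 3′ end, in bases from the first exon start; right, their reads over 6 libraries (bars from 0). The chains differ in their first exons and internal splice sites and share the last 599 bases. Their last exon begins at 3 distinct 3′ splice sites. Of the 24 chains, 23 hold 1608 to 1772 reads beside 2252 for the most read.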

How the data were processed

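The authors deposited 1 table with a whole-number read count for every isoform in every library, without normalization, and isoform models of the whole series on hg19, per the submitters' processing notes. The sources used here name no aligner, filter or rule for assigning reads. Counts were summed per gene. Symbols, types, strand and arrangement came from GENCODE 29, which matched 10859 of 11034 Ensembl IDs and is on another build, so its coordinates were not mixed with those of the models. The 13186 loci without a gene ID stayed in the fits.

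The quasi-likelihood test of edgeR 4.0.16 (R 4.3.3) was run on genes and on isoforms, using TMM scaling, filterByExpr (10 reads, 15 in total), a term for B1/B2 and Benjamini-Hochberg adjustment over everything tested, at 0.05. The fit has 3 residual degrees of freedom, and diffSpliceDGE tested isoform usage. DESeq2 1.42.0 and limma 3.58.1 were alternatives. Library values were compared by exact permutation. Intervals of pooled ratios cover counting error only. The edgeR gene fit was also run on simulated counts with known changes. Counting and plots used Python 3.11.15, pandas 2.3.3, numpy 2.4.6 and matplotlib 3.10.9. Members and lists were chosen with earlier results of these data known. Named were all called genes, the 15 most read, those with a called isoform or usage, the largest uncalled rise and fall, and the partners where values allowed. Deviations of libraries with the same replicate number from their genotype means correlated at 0.49, 0.16 and 0.85. Such deviations cancel within a genotype, so a difference between B2 and B1 alone can raise all 3 values. They cannot show pairing beyond that mark. The replicate number, which follows isolate and B mark, was still taken to pair the samples. Each number of S34F and WT was then used as a block in an alternative fit.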

Additional observations from a re-analysis of the deposited data

How the results depend on the processing

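The number of antisense genes called, 6, was 0 when 10 reads were asked in every library (8 tested, 2 at an unadjusted p under 0.05), 0 without the B1/B2 term (9 of 34 at an unadjusted p under 0.05, and 2 genes called over the whole table), 0 with isolate 2 summed (6), 0 at equal depth (14 tested, 4), 1 in B1 libraries only and 2 with limma-voom (12). It was 6 with RLE scaling or the annotated strand only, 5 with spliced isoforms only, 8 with no filter, 4 with DESeq2 and 7 of 153 genes with newer symbols, a setting added after the data were seen. With the replicate block, the paired fit, it was 5, SVIL-AS1 being lost at an adjusted p of 0.0596, and no other call of an antisense gene was lost there. Leaving out 1 library at a time gave 0 to 8 calls for antisense genes, 1 to 4 for partners (4 without S34F replicate 1 or 2) and 1 to 6 for isoforms (1 without WT replicate 2 or 3, 4 and 6 without S34F replicate 1 and 2). Called partners, 1, were 3 with no filter and 0 without the B1/B2 term or with isolate 2 summed. Called isoforms, 2, were 7 with no filter and 0 without the B1/B2 term. All 6 called genes kept a negative fold change in every setting where they could be fitted, and with 10 reads asked in every library none could be. At equal depth only PRR34-AS1 and SVIL-AS1 of the 6 could be fitted. LURAP1L-AS1 could also not be fitted in B1 libraries only, with spliced isoforms only, or without WT replicate 2 or 3. All 6 were called for their fall in these same libraries, so the kept sign is no independent support.

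Signs turned only in genes that were not called. NCBP2-AS2 (log2 -0.01) was at 0.0102 with RLE scaling, 0.0084 with DESeq2, 0.0041 without the B1/B2 term, 0.15 in B1 libraries, 0.30 with isolate 2 summed, 0.054 at equal depth, and between -0.47 and 0.20 with 1 library left out. URB1-AS1 was at -0.00050 with no filter and between -0.092 (without S34F replicate 1) and 0.46 with 1 library left out. The same omissions gave -0.45 (without S34F replicate 1) to 1.08 for ZNF561-AS1 and -0.16 (without S34F replicate 1) to 0.26 for OIP5-AS1, which was at -0.10 with no filter. The causes were not tested. Depth limits what can be said of the 83 genes under the filter: 1 read in the shallowest library is 2.12 CPM.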
